A study of Cavia porcellus with 12 samples.

Results

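The urea cycle and periportal nitrogen genes are 9 genes of ammonia release, urea synthesis and arginine breakdown: *CPS1*, *OTC*, *ASS1*, *ASL*, *ARG1*, *ARG2*, *NAGS*, *GLS2* and *HAL*. They were chosen by name, and all 9 were among the 11896 human orthologue symbols of the deposited expression table. Liver RNA was sequenced from 6 guinea pigs with NASH (nonalcoholic steatohepatitis, a fatty and inflamed liver) and 6 controls by stranded mRNA sequencing, each library coming from a separate animal. All were female Hartley guinea pigs (Dunkin Hartley in the labels), kept on their diet for 25 weeks. Controls received chow and had neither NASH nor fibrosis, whereas animals with NASH received a diet rich in fat with added sucrose and cholesterol and were picked for bridging fibrosis. The tissue was a piece of the left lateral lobe of a liver that had not been perfused with fluid to clear its blood. The comparison asks how the expression of these genes differs between the livers with NASH and those of controls. Diet and disease differed together between the groups, so their parts in a difference cannot be told apart. Numbers from the labels name the animals: controls were 5, 10, 31, 32, 45 and 56, and animals with NASH were 2, 9, 11, 20, 41 and 65.

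The urea cycle turns ammonia, which is toxic to the brain, into urea for excretion. It begins in the mitochondria of hepatocytes, where *NAGS* makes N-acetylglutamate, the obligate activator of the ammonia-fixing enzyme *CPS1*, and where *OTC* joins carbamoyl phosphate to ornithine. In the cytosol *ASS1* adds aspartate, *ASL* splits the product into arginine and fumarate, and *ARG1* releases urea and returns ornithine. *ARG2* is a mitochondrial arginase expressed mainly in other tissues such as the kidney, *GLS2* is the liver glutaminase that frees ammonia from glutamine, and *HAL* frees ammonia from histidine. In the liver lobule these functions are concentrated around the portal vein, while glutamine synthetase (*GLUL*) takes up the remaining ammonia around the central vein.

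Each library held between 16980274 and 33091460 counts. Levels are given in CPM, the count relative to a library total that was scaled by edgeR's TMM factors. These factors were 0.804 to 0.875 for controls but 1.116 to 1.241 for NASH. With library size alone as the scale, the median change over all genes moves from 0 to 0.48 on the log2 scale, so every change below is relative to the bulk of the genes. A gene was taken as changed when its Benjamini-Hochberg adjusted p-value from edgeR over all 11896 genes was under 0.05, and 6411 genes (53.9%) were, 3318 higher and 3093 lower. With library size alone, 7603 were higher and 911 lower. Genes of hepatocytes were lower in NASH, with 12 of the 14 plasma protein genes examined passing the test and a summed level of 131000 to 153000 CPM in control livers against 58700 to 90700 CPM in NASH. Cholangiocyte, stellate and erythroid markers were higher: 4 cholangiocyte genes summed to 63.0 to 93.5 CPM in control livers and to 264 to 482 CPM in NASH, and 6 stellate cell genes to 184 to 262 CPM and 592 to 1510 CPM. Of these lists, 4 of 4 and 5 of 6 genes were higher. The 4 erythroid genes were all higher as well, with sums from 1.23 to 6.29 CPM in controls and from 26.0 to 272 CPM in NASH. Of other lists, 1 of 4 macrophage genes was higher and 1 lower, 0 of 5 T cell genes were higher and 1 lower, 3 of 6 endothelial genes were higher and 1 lower, and 2 of 3 neutrophil genes were higher and 0 lower. In bulk tissue, fewer hepatocytes and less RNA per hepatocyte cannot be told apart, and the part of these shifts in the results was not tested.

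Of the 9 urea cycle and periportal nitrogen genes, 7 were lower in guinea pigs with NASH, 0 were higher, and *OTC* and *ARG2* did not pass the test. Among all genes tested, 26.0% were lower and 27.9% higher by the same test. On the log2 scale the median change of the 9 genes was −0.86, against 0 for all genes. Other lists of hepatocyte genes had medians of −0.76 (the 14 plasma protein genes), −0.71 (12 genes around the central vein) and −1.73 (6 other periportal genes). With library size alone 5 of the 9 genes passed, *OTC* and *ARG2* as higher and *CPS1*, *ARG1* and *GLS2* as lower. A fall of at least 1 on the log2 scale that passed the test was seen in *ARG1*, *NAGS* and *GLS2*, and in 5.35% of all genes. The genes are a small set chosen with earlier results of these animals known, so these counts are a description. In *CPS1*, *ARG1* and *GLS2* every animal with NASH lay below every control, as in 15.3% of all genes. The groups were apart in either direction in 33.7% of all genes and upwards in 18.4%, which none of the 9 genes was.

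**Figure D1:**
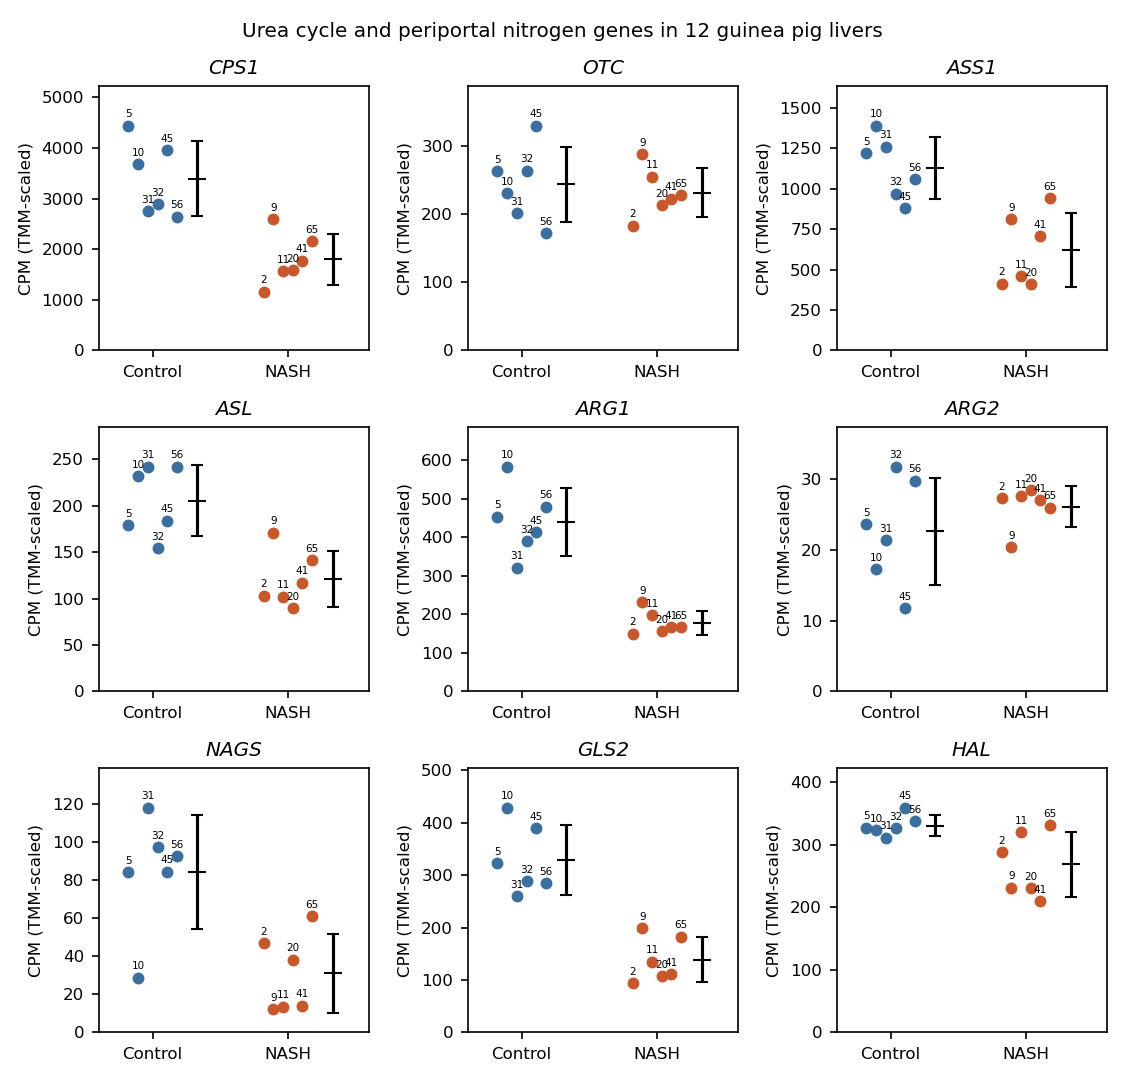
Level of each of the 9 genes in CPM (linear axis from 0, TMM-scaled) in every animal, labelled with its number, with the group mean and SD (n = 6 each) beside the points. The groups are apart in *CPS1*, *ARG1* and *GLS2*, overlap by a few animals in *ASS1*, *ASL* and *NAGS*, and lie largely over each other in *OTC* and *ARG2*, while in *HAL* 2 of the 6 animals with NASH are inside the range of the controls.

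*NAGS*, which makes the activator of the cycle, was at 84.2, 28.7, 118, 97.4, 84.4 and 92.6 CPM in controls 5, 10, 31, 32, 45 and 56. The animals with NASH, in the order 2, 9, 11, 20, 41 and 65, were at 46.9, 12.2, 13.5, 38.2, 14.1 and 60.9 CPM. Control 10 lay far below the other controls, and animals 9, 11 and 41 were the lowest of those with NASH. All 6 animals with NASH were below the control median, but only 3 were below control 10. The log2 fold change was −1.45 (edgeR SE 0.45, adjusted p = 0.0159), the lowest of the 9 genes and the one with the largest error. The highest animal was 4.12 times the lowest in controls and 4.99 times in NASH, the widest spread among the 9 genes. In a RefSeq table of another guinea pig assembly (mCavPor4.1), *NAGS* overlaps a neighbouring gene without a name, and whether reads of that neighbour entered its counts was not tested.

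*CPS1*, the rate-limiting enzyme that fixes ammonia, was at 4440, 3680, 2750, 2890, 3950 and 2640 CPM in controls 5, 10, 31, 32, 45 and 56. In animals 2, 9, 11, 20, 41 and 65 with NASH it was at 1160, 2590, 1560, 1590, 1770 and 2160 CPM. Animal 9 came within reach of the lowest control, and the groups did not overlap. The mean fell from 3390 ± 736 to 1800 ± 503 CPM (SD, n = 6 each), a fitted log2 fold change of −0.91 (edgeR SE 0.19, adjusted p = 0.00157). In raw counts, *CPS1* took 0.286 ± 0.054% of a control library and 0.212 ± 0.054% of a NASH library (SD, n = 6 each), and on that scale the groups overlapped.

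*OTC*, the partner of *CPS1* in the mitochondrion, was at 263, 231, 202, 264, 330 and 172 CPM in controls 5, 10, 31, 32, 45 and 56. In animals 2, 9, 11, 20, 41 and 65 with NASH it was at 183, 288, 255, 213, 223 and 228 CPM. Every animal with NASH was inside the range of the controls. Its fitted change of −0.07 on the log2 scale (edgeR SE 0.15, adjusted p = 0.709) was smaller than its error. With library size alone as the scale, its value was 0.40 (edgeR adjusted p = 0.0195), which is close to the shift of all genes under that scaling.

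*ASS1*, which brings in the other nitrogen of urea as aspartate, was at 1220, 1390, 1260, 969, 881 and 1060 CPM in controls 5, 10, 31, 32, 45 and 56. NASH animals 2, 9, 11, 20, 41 and 65 were at 412, 810, 458, 410, 707 and 940 CPM. Animal 65 was above control 45, and the other 5 were below every control. The log2 fold change was −0.86 (edgeR SE 0.22, adjusted p = 0.00534), and the highest animal with NASH was 2.30 times the lowest, against 1.58 times in controls.

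*ASL*, which releases arginine, was at 179, 232, 242, 154, 184 and 242 CPM in controls 5, 10, 31, 32, 45 and 56, and at 103, 171, 102, 89.8, 117 and 141 CPM in animals 2, 9, 11, 20, 41 and 65 with NASH. Animal 9 was above control 32, and the other 5 were below every control. Its log2 fold change was −0.77 (edgeR SE 0.17, adjusted p = 0.00181). Its count row also carries the symbol *AC068533.4*, so the counts cannot be divided between the pair.

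*ARG1*, the cytosolic arginase that forms urea, was at 453, 583, 321, 389, 413 and 479 CPM in controls 5, 10, 31, 32, 45 and 56. Its level was lower in NASH animals 2, 9, 11, 20, 41 and 65, at 150, 232, 198, 156, 167 and 166 CPM. The groups were well apart, and the animals with NASH lay close together, with a coefficient of variation of 17.4%. The mean fell from 440 ± 88.8 to 178 ± 31.1 CPM (SD, n = 6 each), a fitted log2 fold change of −1.30 (edgeR SE 0.15, adjusted p = 1.08e-05), the smallest p-value of the 9 genes.

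*ARG2*, the mitochondrial arginase, was at 23.7, 17.3, 21.4, 31.8, 11.8 and 29.8 CPM in controls 5, 10, 31, 32, 45 and 56, and at 27.3, 20.4, 27.6, 28.5, 27.1 and 26.0 CPM in animals 2, 9, 11, 20, 41 and 65 with NASH. No animal with NASH was outside the range of the controls. The log2 fold change was 0.21 (edgeR SE 0.20, adjusted p = 0.402), and with library size alone it was 0.68 (edgeR adjusted p = 0.0102). In the mCavPor4.1 table *ARG2* overlaps *Vti1b*, and the part of that overlap in its counts was not tested.

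*GLS2*, which frees ammonia from glutamine next to the entry of the cycle, was at 323, 429, 260, 289, 390 and 285 CPM in controls 5, 10, 31, 32, 45 and 56. Levels in NASH animals 2, 9, 11, 20, 41 and 65 were 94.6, 199, 135, 108, 111 and 183 CPM. The highest animal with NASH, number 9, remained below the lowest control. *GLS2* and *ASS1* each overlap a neighbouring gene in the mCavPor4.1 table, whose part in their counts was not tested. The mean fell from 329 ± 66.6 to 139 ± 43.1 CPM (SD, n = 6 each), a fitted log2 fold change of −1.25 (edgeR SE 0.20, adjusted p = 0.000187).

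*HAL*, the enzyme that deaminates histidine, was at 327, 323, 311, 326, 359 and 337 CPM in controls 5, 10, 31, 32, 45 and 56. In animals 2, 9, 11, 20, 41 and 65 with NASH it was at 288, 231, 320, 230, 210 and 331 CPM. Controls varied little, with a coefficient of variation of 4.95%, whereas animals 11 and 65 with NASH lay inside their range and the other 4 below it. Its fitted change of −0.30 on the log2 scale (edgeR SE 0.11, adjusted p = 0.0400) was the smallest of the 7 falls. It turned to 0.17 with library size alone (edgeR adjusted p = 0.171). It did not pass the test under upper-quartile factors (−0.23, edgeR adjusted p = 0.107), with every row of at least 1 count (−0.22, edgeR adjusted p = 0.153) or without any 1 of 8 animals (controls 5, 10, 32, 45 and 56 and NASH animals 9, 20 and 41, edgeR adjusted p from 0.0559 to 0.0859). Its count row also carries *LTA4H*, the gene of leukotriene A4 hydrolase, an enzyme of myeloid and other cells. The value is therefore that of both genes together, and how much each contributed was not tested.

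**Figure D2:**
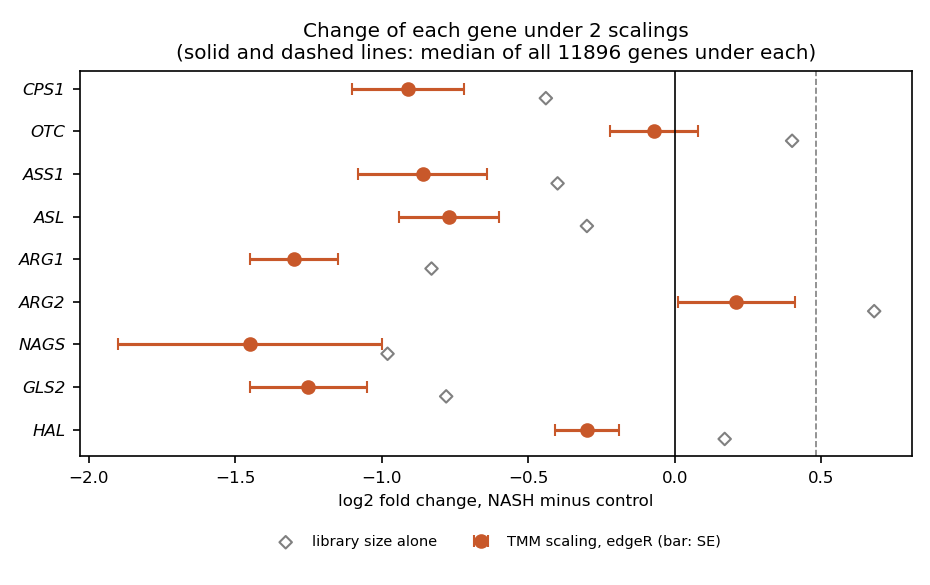
Log2 fold change (NASH minus control) of each gene from edgeR with its SE under TMM scaling (filled), and under library size alone (open diamonds), with the median of all 11896 genes under each scaling as a solid and a dashed line. Under TMM scaling the genes range from −1.45 (*NAGS*) to 0.21 (*ARG2*), and under library size alone all values move to the right together with the median of all genes, which is then 0.48.

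The animals did not hold the same rank in all genes. Among those with NASH, animal 9 had the highest level of 5 genes (*CPS1*, *OTC*, *ASL*, *ARG1* and *GLS2*) and the lowest of *NAGS* and *ARG2*. Animal 2 had the lowest level of 4 genes (*CPS1*, *OTC*, *ARG1* and *GLS2*). Animal 65 was highest in *ASS1*, *NAGS* and *HAL*. In controls no animal was extreme in more than 5 genes, and control 10 was lowest in *NAGS* and highest in *ASS1*, *ARG1* and *GLS2*. The 5 enzymes from *CPS1* to *ARG1* together took 0.457 ± 0.058% of the raw counts in controls and 0.346 ± 0.082% in NASH (SD, n = 6 each). In this share animal 9, at 0.474%, was inside the range of the controls (0.398 to 0.526%), as was animal 65 at 0.405%.

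Because the scaling between libraries affects each value, the genes were also compared with each other inside each animal, where the scaling cancels. For each of the 36 pairs, the log2 ratio of their counts was compared between groups with a two-sided exact permutation test. The smallest p-value that 6 animals against 6 allow is 0.00216. After adjustment over the 36 pairs 11 differed, and 20 had an unadjusted p-value under 0.05. *OTC* rose relative to *CPS1* by 0.87 on the log2 scale, from a log2 ratio of *CPS1* to *OTC* of 3.80 ± 0.25 to one of 2.93 ± 0.26 (SD, n = 6 each; exact p = 0.00216, adjusted p = 0.0156). *OTC* rose relative to *ARG1* by 1.24 and relative to *GLS2* by 1.23 (adjusted exact p = 0.0156 for both). In each of these 3 ratios the groups did not overlap. Relative to *ASS1*, *ASL* and *NAGS*, the differences of *OTC* were 0.87, 0.73 and 1.57. These did not pass after adjustment (adjusted exact p = 0.0519, 0.0557 and 0.0701), and the groups overlapped. Nor did its ratios to *ARG2* and *HAL* pass (adjusted exact p = 0.473 and 0.283).

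The ratio of the arginases differed between groups. The log2 ratio of *ARG1* to *ARG2* was 4.33 ± 0.63 in controls and 2.76 ± 0.39 in NASH (SD, n = 6 each), a difference of −1.57 without overlap (exact p = 0.00216, adjusted p = 0.0156). *ARG2* also rose relative to *CPS1*, *ASS1*, *ASL*, *NAGS* and *GLS2*, by 1.20, 1.20, 1.06, 1.90 and 1.55 (adjusted exact p from 0.0292 to 0.0496), and in these the groups overlapped. *ARG1* and *GLS2* both fell relative to the row of *HAL* and *LTA4H*, by 0.97 and 0.96 (adjusted exact p = 0.0156 and 0.0292). Ratios among *CPS1*, *ASS1* and *ASL* moved by at most 0.15 on the log2 scale (adjusted exact p from 0.423 to 0.970). With SDs of these ratios between 0.21 and 0.48, differences of this size were inside the spread between animals. Without animal 2 with NASH, 7 pairs differed in place of 11.

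**Figure D3:**
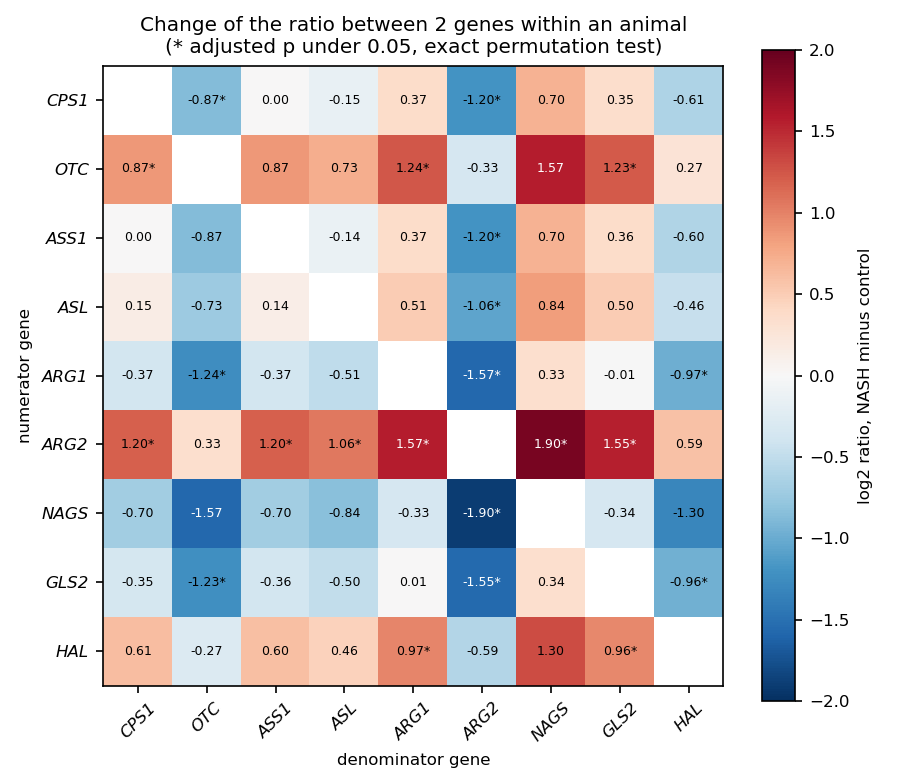
Change of the log2 ratio of 2 genes within an animal (row gene over column gene, NASH minus control, colour from −2 to 2), with a star where the adjusted p-value of the exact permutation test is under 0.05. The stars lie in the rows and columns of *OTC*, *ARG2* and *HAL*, and the values among *CPS1*, *ASS1* and *ASL* are close to 0.

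Each gene was then set against 14 hepatocyte genes for plasma proteins (among them *ALB*, *TTR*, *APOB* and *SERPINA1*) in the same animal, by the difference between its log2 count and their mean log2 count. On this scale 3 of the 9 genes differed between groups by the exact permutation test adjusted over the 9 genes, all 3 upwards, and 3 had an unadjusted p-value under 0.05. *OTC* was higher by 0.93 (exact p = 0.00216, adjusted p = 0.00974), *ARG2* by 1.26 (exact p = 0.00216, adjusted p = 0.00974) and the row of *HAL* and *LTA4H* by 0.67 (exact p = 0.00433, adjusted p = 0.0130). *CPS1*, *ASS1* and *ASL* had differences of 0.06, 0.07 and 0.21, with SDs between 0.22 and 0.37 in the groups (adjusted exact p from 0.347 to 0.764). *ARG1*, *GLS2* and *NAGS* had differences of −0.31, −0.29 and −0.63 (adjusted exact p = 0.263, 0.312 and 0.351). With *ALB* alone as the reference, 5 genes differed in place of 3, because *CPS1* (0.38, adjusted exact p = 0.0312) and *ASL* (0.52, adjusted exact p = 0.0146) passed as well. Without the acute-phase genes, 4 differed, *ASL* among them (0.42, adjusted exact p = 0.0438). Which hepatocyte genes serve as the reference therefore sets how many of the cycle genes stand out.

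**Figure D4:**
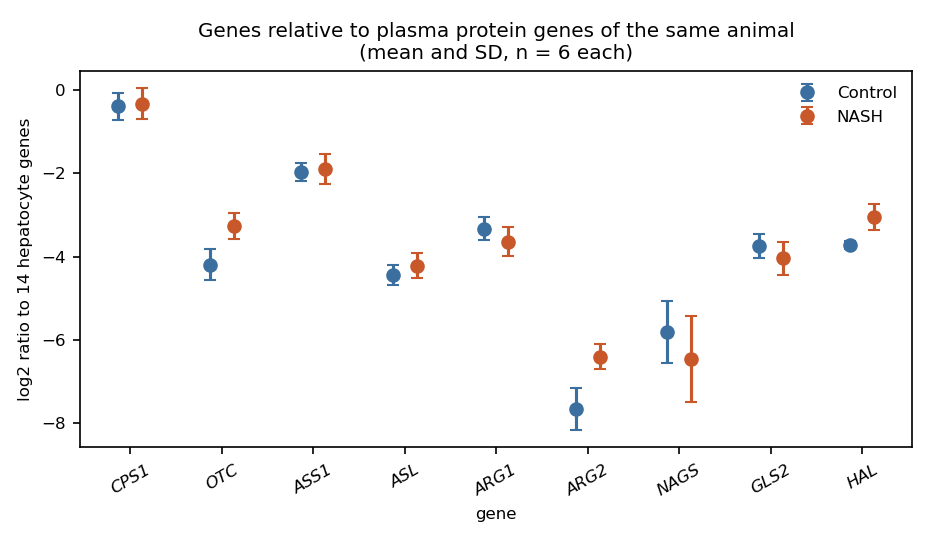
Log2 ratio of each gene to the mean of 14 plasma protein genes of hepatocytes in the same animal, as mean and SD of 6 controls and 6 animals with NASH. The group means of *CPS1*, *ASS1* and *ASL* lie within 0.21 of each other, whereas *OTC*, *ARG2* and *HAL* are higher in NASH.

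The carriers that link the mitochondrial and cytosolic parts of the cycle, with the carbonic anhydrases that supply bicarbonate, were followed in a list of 8 genes, of which 7 were in the table. By edgeR's test 3 were lower and 2 higher, and the median change was −0.65 on the log2 scale. In all the lists from here to the pericentral genes, 36 genes were lower and 11 higher, and with library size alone 22 and 19, with *SDS*, *OAT* and *GLUL*, which stand in 2 lists, counted once. Over all 11896 genes, 26.0% were lower and 27.9% higher, and with library size alone 911 were lower and 7603 higher. These shares also belong beside the counts of each single list, that of the carriers included. *CA5A*, the mitochondrial carbonic anhydrase of the liver that serves *CPS1*, fell from 142 ± 20.3 to 42.1 ± 5.04 CPM (SD, n = 6 each; log2 fold change −1.75, edgeR SE 0.11, adjusted p = 1.37e-07). Its highest animal with NASH, at 48.9 CPM, was far below its lowest control, at 119 CPM. Its relative *CA5B*, found in many tissues, rose from 4.0 ± 0.736 to 6.65 ± 1.15 CPM (SD, n = 6 each; edgeR adjusted p = 0.00129). *SLC25A22*, a mitochondrial glutamate carrier, fell by 0.85 on the log2 scale (edgeR SE 0.09, adjusted p = 8.01e-06), also without overlap.

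*SLC25A15*, the carrier that returns ornithine to the mitochondrion, fell by 0.65 (edgeR SE 0.25, adjusted p = 0.0456), with controls at 82.9 to 177 CPM and animals with NASH at 54.9 to 110 CPM. This fall did not pass the test without any 1 of 6 animals, controls 10 and 56 and NASH animals 2, 9, 11 and 20 (edgeR adjusted p from 0.0778 to 0.110). Nor did it pass with upper-quartile factors (edgeR adjusted p = 0.0709), library size alone (−0.19, edgeR adjusted p = 0.507) or every row of at least 1 count (edgeR adjusted p = 0.105). *SLC25A13*, the liver form, which exports the aspartate used by *ASS1*, had a log2 fold change of −0.03 (edgeR SE 0.17, adjusted p = 0.912) at 185 ± 49.8 CPM in controls and 182 ± 11.2 CPM in NASH (SD, n = 6 each). *SLC25A12*, the form of brain and muscle, rose from 1.70 ± 0.352 to 3.43 ± 0.282 CPM (SD, n = 6 each; edgeR adjusted p = 0.000112), without overlap. *SLC25A18*, another glutamate carrier, was low throughout, with a value of −1.32 (edgeR SE 0.58, adjusted p = 0.0735). It passed the test without control 56 or NASH animal 9 (edgeR adjusted p = 0.0245 and 0.0337) and with DESeq2 (−1.31, adjusted p = 0.0477).

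All 3 genes of the histidine pathway downstream of *HAL* fell without overlap between groups, namely *UROC1*, the urocanase, by 0.79 (edgeR adjusted p = 0.00247), *AMDHD1*, the next enzyme, by 0.77 (edgeR adjusted p = 6.72e-06) and *FTCD*, which passes the remaining carbon to folate, by 1.21 on the log2 scale (edgeR adjusted p = 2.7e-05). Such a fall without overlap was seen in 15.3% of all genes and in 9 of the 14 plasma protein genes of hepatocytes. *UROC1* did not pass the test with library size alone (−0.32, edgeR adjusted p = 0.0898). *FTCD* ranged from 606 to 842 CPM in controls, against 221 to 421 CPM in NASH. The value of *HAL* itself, −0.30, was closer to 0 than those of these 3 genes, and its row is shared with *LTA4H* whereas theirs are not shared.

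Of the list of 11 genes that carry ammonia and amino groups, 10 could be followed, and 5 fell while 1 rose (median −0.44 on the log2 scale). *SDS* and *SDSL*, which deaminate serine and threonine, had the lowest values, −3.17 (edgeR SE 0.94, adjusted p = 0.0122) and −2.03 (edgeR SE 0.24, adjusted p = 1.83e-05). Without NASH animal 9 the value of *SDS* was −4.56 (edgeR adjusted p = 0.000715), and limma-voom gave −4.25 (adjusted p = 0.00209). *GLUD1*, the glutamate dehydrogenase, whose row also carries *GLUD2*, fell from 1590 ± 176 to 880 ± 85.5 CPM (SD, n = 6 each; log2 fold change −0.86, edgeR SE 0.09, adjusted p = 9.1e-06), without overlap. *GPT2*, a mitochondrial alanine transaminase, fell by 0.58 (edgeR SE 0.15, adjusted p = 0.00591), which did not pass with library size alone (−0.11, edgeR adjusted p = 0.50). *ASNS*, which makes asparagine, was the gene that rose, by 0.42 (edgeR SE 0.14, adjusted p = 0.0217). It did not pass the test without animal 41 with NASH (edgeR adjusted p = 0.0514). *GLUL*, which removes ammonia as glutamine around the central vein, was at 135 ± 30.5 CPM in controls and 127 ± 19.0 CPM in NASH (SD, n = 6 each), with a log2 fold change of −0.09 (edgeR SE 0.16, adjusted p = 0.637). Its animals with NASH, between 92.1 and 150 CPM, all lay inside the range of the controls.

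Of 23 genes that use arginine and ornithine outside the cycle, 21 were in the table, of which 6 fell, 7 rose and 8 did not pass the test, around a median of 0.12 on the log2 scale. Over all genes, 26.0% fell and 27.9% rose, so these shares are near the background. *PRODH*, which breaks down proline and shares its row with *AC007325.2*, and *GATM*, which starts creatine synthesis from arginine, had the lowest values of these, −2.93 (edgeR SE 0.40, adjusted p = 5.42e-05) and −1.65 (edgeR SE 0.24, adjusted p = 0.00011). *GATM* was at 2510 ± 709 CPM in controls and 801 ± 266 CPM in NASH (SD, n = 6 each). *OAT*, which turns ornithine towards proline and glutamate, fell by 0.89 (edgeR SE 0.15, adjusted p = 0.000213). *SLC7A7*, a cationic amino acid exporter, rose by 1.79 (edgeR SE 0.11, adjusted p = 1.49e-07), from a range of 6.43 to 10.1 CPM in controls to one of 27.5 to 35.9 CPM in NASH. *SLC7A1*, an arginine importer of many cells other than hepatocytes, rose by 1.35 (edgeR SE 0.20, adjusted p = 0.000108). In *PRODH*, *GATM*, *OAT*, *SLC7A7* and *SLC7A1* the groups did not overlap.

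Of 13 genes that regulate the enzymes, 10 were in the table, and *HNF4A*, *CEBPA* and *NR3C1* were not, so these could not be followed. Of the 10 found, 6 were lower and 0 higher around a median of −0.62 on the log2 scale, where 26.0% of all genes were lower. *FOXA2*, a transcription factor of hepatocytes, had the lowest value, −1.98 (edgeR SE 0.36, adjusted p = 0.000501), followed by *GCGR*, the receptor for glucagon, the hormone that induces the urea cycle genes, at −1.15 (edgeR SE 0.13, adjusted p = 9.63e-06). *GCGR* ranged from 159 to 265 CPM in controls, against 80.0 to 106 CPM in NASH. *SIRT5*, which removes acyl groups from *CPS1* protein, fell by 0.44 (edgeR SE 0.09, adjusted p = 0.000789), and with library size alone its value was 0.03.

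Falls were seen in genes of both ends of the lobule. Of 6 other periportal genes, 5 were lower and 1 was higher, with a median of −1.73 on the log2 scale. *PCK1*, which controls gluconeogenesis, fell by 2.91 (edgeR SE 0.33, adjusted p = 1.39e-05), from a range of 741 to 1990 CPM in controls to one of 92.5 to 282 CPM in NASH. *HSD17B13*, a lipid droplet protein, fell by 0.68 (edgeR SE 0.12, adjusted p = 0.000419), which did not pass with library size alone (−0.21, edgeR adjusted p = 0.0983). *CDH1*, the epithelial cadherin that cholangiocytes also carry, rose by 0.49 (edgeR SE 0.13, adjusted p = 0.00604). Of 12 pericentral genes, 10 were lower and 0 higher, with a median of −0.71. The drug-metabolising *CYP1A2* and *CYP2E1* had the lowest values, −3.55 (edgeR SE 0.31, adjusted p = 1.46e-06) and −1.93 (edgeR SE 0.36, adjusted p = 0.000597). The sterol hydroxylase *CYP27A1* fell by 0.48 (edgeR SE 0.08, adjusted p = 0.000168) and the dioxin receptor *AHR*, on a row that carries another symbol too, fell by 0.41 (edgeR SE 0.15, adjusted p = 0.0344). With library size alone these values were −0.01 and 0.07, and under TMM scaling *AHR* did not pass the test without any 1 of 9 animals (controls 5, 31, 45 and 56 and NASH animals 2, 11, 20, 41 and 65, edgeR adjusted p from 0.0502 to 0.0671).

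**Figure D5:**
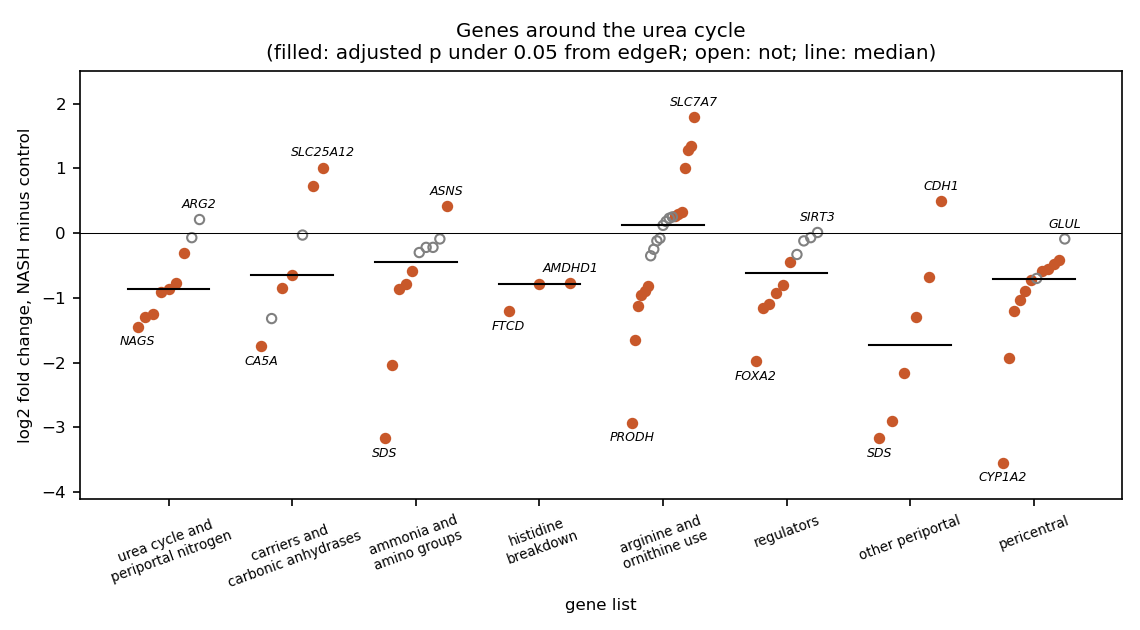
Log2 fold change (NASH minus control) of every gene found of 8 lists, with genes that passed edgeR's test at an adjusted p-value of 0.05 filled, the others open, and a line at the median of each list. The 3 histidine genes lie together below 0, the arginine and ornithine list spreads to both sides with a median of 0.12, and *SDS*, *OAT* and *GLUL* appear in 2 lists.

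To see which other genes followed *CPS1*, the root mean square difference from *CPS1* was taken over the 12 animals, in deposited rlog values (log2 counts after shrinkage) relative to the control mean. Outside the lists the genes most like it were *SLC38A4*, a neutral and cationic amino acid transporter of the liver (0.098), *HABP2*, a plasma protease (0.128), *FBXO21.1*, listed as a copy of an F-box gene (0.134), *OCA2*, a melanosome protein (0.137) and *SLC22A2*, an organic cation transporter (0.137). These genes were chosen by their values in the same animals, so their levels are a description without a test. *SLC38A4* was at 398 ± 81.4 CPM in controls and 201 ± 29.7 CPM in NASH (SD, n = 6 each). *OCA2* was low, at 9.04 ± 1.47 CPM in controls and 3.64 ± 0.798 CPM in NASH (SD, n = 6 each), and its fitted log2 fold change of −1.31 was farther from the −0.91 of *CPS1* than the shrunken rlog values were. Among the 9 genes, *GLS2* (0.20) and *ASS1* (0.203) were the nearest to *CPS1*, at ranks 154 and 173 of all genes, and *ARG2* (0.649) and *NAGS* (0.648) the farthest.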

How the data were processed

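The authors trimmed reads with Trimmomatic 0.38.0, mapped them with HISAT2 2.1.0 to Cavpor3.0, ignored multimapped reads and quantified loci with StringTie 1.3.6. They deposited raw counts per locus without normalisation and log2 values (rlog of DESeq2) per human orthologue symbol, for genes with at least 200 counts in total. Symbols were tied to count rows by recomputing rlog values until they equalled those deposited. This recovered all 11896 symbols from 11031 rows, with a largest difference of 8.4e-07.

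Counts were tested with edgeR 4.0.16 in R 4.3.3 (TMM factors on totals of all rows, robust glmQLFit, glmQLFTest). The SE is the absolute log2 fold change over the square root of F. Ratios within an animal used log2(count + 0.5) and exact permutation tests over all 924 assignments of the 12 animals. Benjamini-Hochberg adjustment was used throughout. Figures were drawn with matplotlib 3.10.9.

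The 9 genes and the lists were chosen with earlier results of these data known. All 9 genes are described, with every carrier and histidine gene found, the 2 highest and 2 lowest changed genes of the other lists, *GLUL*, *GLUD1*, *OAT* and the 5 genes most like *CPS1*. Genes listed but outside the table, such as *FBP1* and *LECT2*, were not analysed here, and a result that the rule would name is not reported. Alternatives were RLE and upper-quartile factors, library size alone, DESeq2 1.42.0, limma-voom (limma 3.58.1), filterByExpr, an adjusted p under 0.01, all rows with 1 count or more, a pseudocount of 2, other reference genes and each animal left out in turn. In simulated counts of 11031 genes, edgeR found 95% of 200 genes given a 4-fold change, with 3.06% false calls, and called 0 genes in data without a change. The 200 changes were balanced between up and down, whereas 6411 of 11896 genes passed the test in the real data. The simulation therefore cannot show how the test performs under the scaling shift of these data or for smaller changes. Which genes neighbour each other was read from a RefSeq table of mCavPor4.1, which matched all 9 genes (10337 of the 11896 symbols). Coordinates are left out because its build is another than that of the files.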

Additional observations from a re-analysis of the deposited data

Results flagged for a closer look

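In the named genes, 90 groups of 6 animals were examined with Dixon's test at its 95% critical value for the gap over the range. Chance flags about 1 in 20 such groups, and 5 stood out. In NASH, animal 9 was lowest in *ARG2*, at 20.4 CPM with the next animal at 26.0 CPM, and highest in *SDS*, at 36.3 CPM against 7.18 CPM, and in *FOXA2*, at 5.26 CPM against 2.75 CPM. In controls, animal 10 was highest in *SDSL*, at 274 CPM against 176 CPM, and animal 5 was lowest in *SLC7A7*, at 6.43 CPM against 9.04 CPM.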

How the results depend on the processing

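No paired analysis was possible because no animal number occurs in both groups. With library size alone, *OTC* was at 0.40 and *HAL* at 0.17, both reversed in sign, *ARG2* at 0.68 was past the threshold, and *ASS1* (−0.40), *ASL* (−0.30) and *NAGS* (−0.98) no longer were. *HAL* was not past it with upper-quartile factors (−0.23) or with every row of at least 1 count (−0.22) either. Of the other listed genes past the threshold in either setting, *SLC25A13* (0.45), *GOT2* (0.26), *OAZ1* (0.36), *SIRT5* (0.03) and *AHR* (0.07) changed sign with library size alone, where all genes had a median of 0.48, and 9 listed genes past it in neither did so too. In that setting 7603 of all genes were higher and 911 lower, against 3318 and 3093, and with every row of at least 1 count 3600 and 2238. With upper-quartile factors they were 3797 and 2568. Between 5 and 7 of the 9 genes passed the test in every setting, and with library size alone 2 of the 5 were higher. With each animal left out, *HAL* lay between −0.38 and −0.24, *OTC* between −0.15 and 0.03, and between 7 and 13 pairs of genes differed in ratio. With *ALB* alone as reference, 5 genes differed relative to it. The cause of these differences was not tested.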
